A study of Homo sapiens with 6 samples.

Results

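Replication-dependent histone genes encode the histones that package newly copied DNA. Their names on the array begin with HIST1H, HIST2H, HIST3H or HIST4H, and this prefix chose the members. Of 36328 gene names on the array, 70 matched: 6 of class H1, 17 of H2A, 19 of H2B, 13 of H3 and 15 of H4. The class was read from the letters after the cluster prefix, and the probe with the highest mean signal over all 6 arrays stood for a gene. Because the name alone decided, HIST1H2APS1, HIST2H2BA (current symbol H2BP1) and the testis-type HIST1H1T, HIST1H2AA, HIST1H2BA and HIST3H3 were included.

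The cells were MOLT-4, a human leukaemia line of T-lymphoblast origin. One group of 3 samples carried the empty vector (mock) and the other group of 3 overexpressed NUDT16, a decapping enzyme, from a vector; nothing else was done to either group as far as the labels say. Capped RNA (m3G and m7G caps) was immunoprecipitated from 20 µg of total RNA per reaction, reverse transcribed, labelled with Cy3 and hybridised to 1-colour Agilent arrays. The question is which capped transcripts differ in the eluate when NUDT16 is supplied. The labels do not say whether replicates came from separate cultures, so p-values measure only the spread between these samples, and the number of arrays limits the precision. Input RNA was not analysed here, so RNA abundance and capping cannot be told apart, and neither can fewer cells with a transcript and less of it per cell.

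In the nucleosome, a tetramer of H3 and H4 and a pair of H2A-H2B dimers hold the DNA, and H1 binds the linker between nucleosomes. The genes are mostly transcribed in S phase. Their mRNAs carry a 5′ m7G cap like other mRNAs but end in a stem-loop in place of a poly(A) tail. SLBP binds that stem-loop, and the mRNAs are degraded when DNA synthesis stops.

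The stem-loop is shown first because it is the feature that sets these mRNAs apart. Its letters were searched as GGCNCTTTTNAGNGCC in the sense strand of all 50586 usable probes. They were found in 7 probes (0.0138%), of which 6 were among the 84 histone probes (7.14%), and in 0 probes on the reverse strand. The stem-loop letters are in capitals below, with the flanking bases of the deposited probe.
HIST1H2AI: aaccaaaGGCTCTTTTCAGAGCCaccta
HIST1H2BE: acccaaaGGCTCTTTTCAGAGCCactca
HIST1H2BF: tcccaaaGGCTCTTTTAAGAGCCa
HIST2H3A: tccaaaaGGCTCTTTTCAGAGCCacc
HIST1H3H, second probe: acccaaaGGCTCTTTTCAGAGCCaccca
HIST1H4K, second probe: aacaaaaGGCCCTTTTTAGGGCCcc
The first 4 are in the probes that stand for their genes. In hg19 these probes lie at chr6:27776386-27776445 (HIST1H2AI), chr6:26184399-26184458 (HIST1H2BE), chr6:26200153-26200212 (HIST1H2BF) and chr1:149824626-149824685 (HIST2H3A).

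Signals are given as the log2 of the processed spot intensity minus the 75th percentile of the same array, so 0 is that percentile. A probe was called detected on an array when most of its spots were well above background by the scanner software. Detection ran from 39.3% to 52.0% of spots on 5 arrays and was 14.6% on NUDT16 replicate 2, whose 75th percentile (intensity 8.66, against 92.5 to 358 on the others) fell among background spots. Both probes named NUDT16 were detected on no array, so they do not check the labels; a probe of the pseudogene NUDT16P1 was detected on every NUDT16 array and on 0 mock arrays, and was the 1 probe called in the series. Of 16 T-lineage markers, all had a probe, 9 were detected on all 6 arrays, 13 were tested, 0 were called and 0 were absent from every array. Of 12 markers of other cells, 11 had a probe and 8 were detected on no array; CD79A was tested and not called, and CD14 was detected on 2 arrays of each group.

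Most histone genes gave signal on every array. Of the 70 members, 63 were detected on all 6 arrays, and the same 63 passed the filter for testing (detected on all 3 arrays of a group). They comprised 4 of 6 H1, 16 of 17 H2A, 16 of 19 H2B, 13 of 13 H3 and 14 of 15 H4 genes. By cluster they were 51 of 56 HIST1 genes on chromosome 6, 8 of 10 HIST2 and 3 of 3 HIST3 genes on chromosome 1, and the single HIST4 gene on chromosome 12. Members whose brightest probe under their name was detected on no array were HIST1H1A, HIST1H1T, HIST1H2APS1, HIST1H2BA, HIST2H2BA and HIST2H4A, and HIST1H2BE was detected on 2 mock arrays and 1 NUDT16 array. The probe named HIST2H4A matched no RefSeq transcript, and H4C14, the current symbol of HIST2H4A, was listed for the HIST2H4B probe, detected on all 6 arrays. H2BP1, that of HIST2H2BA, was listed for the HIST2H2BF probe, also detected on all 6, so the absence is of these probes and not of every probe that matches the gene.

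The testis-type members did not behave alike. HIST1H1T and HIST1H2BA were detected on no array, whereas HIST1H2AA and HIST3H3 were detected on all 6. This is detection by the probe. The HIST3H3 probe resembles those of other H3 genes, such as HIST2H3D, and signal from other copies was not tested. HIST1H2AA and HIST1H2BA are neighbours in hg19 (probes at chr6:25726563-25726622 and chr6:25727182-25727241), on opposite strands.

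No histone gene passed the test between NUDT16 and mock arrays. With limma and Benjamini-Hochberg adjustment over 17765 probes, 0 of 63 were called at 0.05, where 0.00563% of all probes tested were called. At an unadjusted p under 0.05 the histone count was again 0 (background 0.0844%), and every limma adjusted p was 0.9996. The same-numbered arrays shared a slide and varied together, so the replicate number was also fitted as a block: 0 were called, and 0 had an unadjusted p under 0.05, where 8.03% of all probes had one (3.53% with a difference above 0). The limma adjusted p with the block lay between 0.485 and 0.764. In 0 of 63 genes did the groups fail to overlap (background 1.38%). Their errors were large, with a median SE of 0.92 on the log2 scale against 0.66 over all probes tested, and 0.40 against 0.33 with the block.

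The difference of means was above 0 for 62 of the 63 genes, where 48.6% of all probes tested and 63.4% of the 6582 probes detected on all 6 arrays were above 0. The sign relative to 0 depends on the scaling, which shifts all probes: the count was 48 with quantile normalization, 39 in the authors' value table, 3 with a median shift, 2 with normexp background correction and 0 without scaling. Set against the median of all probes tested, 62 of 63 genes were above it as reported and under each of these settings except normexp, where 8 were; without the filter on dim probes 0 were. Class medians of the log2 difference were 0.41 for H1, 0.49 for H2A, 0.37 for H2B, 0.55 for H3 and 0.59 for H4. The median was 0.49 over all 63, -0.02 over all probes tested and 0.24 over the probes detected on all 6 arrays. The class order depended on the processing. With quantile normalization, minus the median of all probes tested, H2A was highest at 0.49. H4, H2B, H1 and H3 had 0.42, 0.40, 0.31 and 0.30. In the authors' table H2A was also highest at 0.36, followed by H2B at 0.28, and H3, H4 and H1 were each at 0.21. Without NUDT16 replicate 2 the difference was above 0 for 0 of 63 genes, and the histone median minus that of all probes went from 0.51 to -0.53. Without mock replicate 2 it was 1.13. Each of these fits keeps the other replicate 2 array, which shared a slide with the one left out, so the pairing is broken. With both replicate 2 arrays left out and the replicate block fitted, 37 genes were above 0 and 26 below. The histone median minus that of all probes was then 0.02.

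With the reported scaling, the sign of the difference followed the pair of arrays more closely than the class. NUDT16 replicate 1 lay above its mock partner in 63 of 63 genes (background 51.6%), with a median of 0.40. NUDT16 replicate 2 lay above its partner in 62 of 63 (background 47.2%, and 55% of probes detected on all 6 arrays), with a median of 1.37. NUDT16 replicate 3 lay below its partner in 62 of 63 (background 51.7%), with a median of -0.33. Over the probes detected on all 6 arrays, as all 63 genes were, the median differences in pairs 1, 2 and 3 were 0.29, 0.17 and 0.08. The combination of above, above and below was met by 61 of 63 genes, against 11.8% of all probes tested and 16% of those detected on all 6 arrays. These signs are relative to 0, and the scaling shifts all probes of an array. In pair 2 the 75th percentile was 92.5 on the mock array and 8.66 on the NUDT16 array. The pair signs were not counted under the other scalings. Of the 2 exceptions, HIST1H3A was below its partner in pair 2, and HIST1H4L was above it in all 3 pairs, with 0.0020 in pair 3 (20% of all probes tested were above in all 3). HIST1H4L was chosen for mention after its values were seen. A second HIST1H4L probe, detected on all 6 arrays, had 0.48, 1.21 and -0.28 in pairs 1, 2 and 3, so the exception is of 1 probe.

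**Figure D1:**
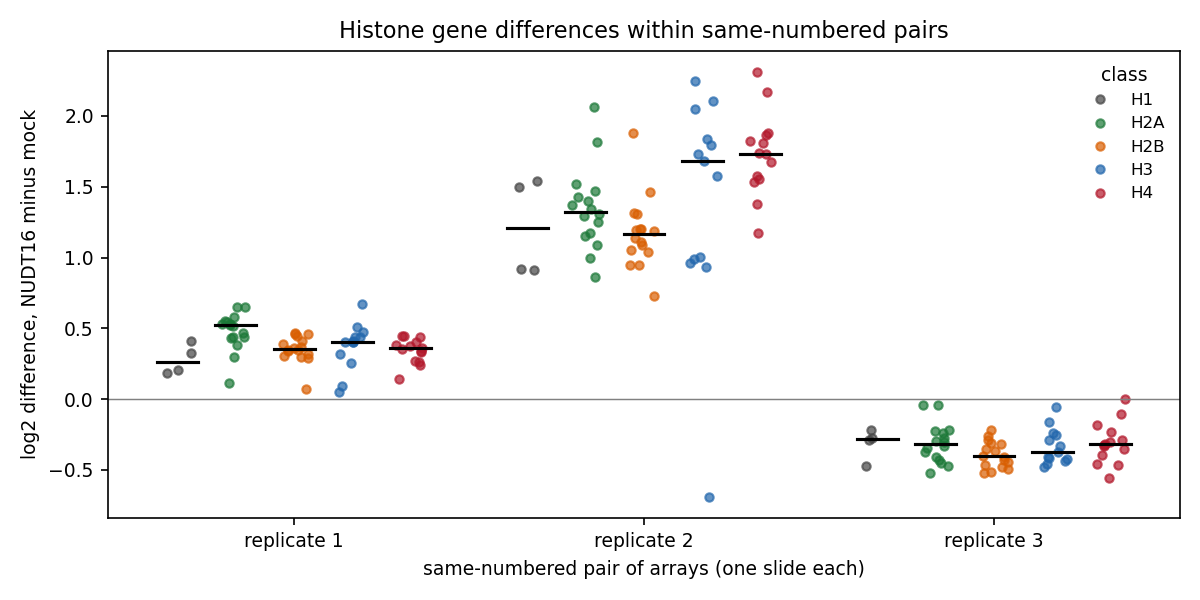
Log2 difference of NUDT16 minus mock (vertical axis) for each of the 63 tested histone genes, within the pair of arrays that share a replicate number (horizontal axis), coloured by class; bars are class medians. With the reported scaling, pair 1 lies between 0.05 and 0.67, pair 2 between 0.73 and 2.31 apart from HIST1H3A at -0.69, and pair 3 between -0.56 and 0.0020.

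With the reported scaling, class medians had the same sign as each other within every pair. In pair 1 they ran from 0.26 (H1) to 0.52 (H2A), in pair 2 from 1.16 (H2B) to 1.73 (H4), and in pair 3 from -0.40 (H2B) to -0.28 (H1). The classes were furthest apart in pair 2, where H4 and H3 had the highest medians (1.73 and 1.68) and H2A, H1 and H2B had 1.32, 1.21 and 1.16. The ranges overlapped: from 0.73 to 1.88 for H2B and from 1.17 to 2.31 for H4. Pair 2 holds the array with the lowest detection, NUDT16 replicate 2, and the part of that array in the class order was not tested.

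The linker histone H1 genes were all in the HIST1 cluster. HIST1H1C (A_23_P122443, chr6:26056050-26056109) read 8.17, 10.00 and 8.76 on mock replicates 1, 2 and 3, and 8.58, 11.54 and 8.47 on NUDT16 replicates 1, 2 and 3. Both replicate 2 arrays were high, and the groups overlapped. The mock mean was 8.98 ± 0.94 (SD, n = 3) and the NUDT16 mean 9.53 ± 1.74 (SD, n = 3), a difference of 0.55 (SE 0.84). HIST1H1E (A_23_P7976, chr6:26156928-26156987) read 8.06, 9.62 and 8.19 in mock and 8.39, 11.12 and 7.91 in NUDT16 arrays, a difference of 0.51 (SE 0.83). HIST1H1B (A_23_P250385, chr6:27834629-27834688) read 7.49, 8.97 and 7.67 in mock and 7.69, 9.88 and 7.19 in NUDT16 arrays, a difference of 0.21 (SE 0.76). HIST1H1D (A_24_P260639, chr6:26234699-26234758) had a difference of 0.30 (SE 0.77). In all 4 H1 genes replicate 2 was the highest array of each group. In pair 2 they split, with 1.54 and 1.496 for HIST1H1C and HIST1H1E, and 0.91 and 0.92 for HIST1H1B and HIST1H1D.

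Among the H2A genes, whose product pairs with H2B in the outer dimers of the nucleosome, all 16 tested had a difference above 0, from 0.33 to 0.68. HIST2H2AA4 (A_23_P309381, chr1:149822628-149822687) had the highest, 0.68 (SE 0.96). It read 1.96, 4.55 and 3.32 in mock and 2.51, 6.37 and 2.97 in NUDT16 arrays. Mock replicate 1 lay further below the other mock arrays than the groups lay apart. HIST3H2A (A_33_P3404032, chr1:228645483-228645542) was next at 0.62 (SE 0.94), reading -1.07, 0.86 and -0.38 in mock and -0.95, 2.92 and -0.68 in NUDT16 arrays, so that NUDT16 replicate 2 alone stood well above the rest. The lowest were HIST1H2AA at 0.33 (SE 0.97) and HIST2H2AB (A_24_P68631, chr1:149859185-149859244) at 0.41 (SE 0.90). HIST1H2AA read -0.73, 2.45 and 1.02 in mock and -0.20, 3.44 and 0.49 in NUDT16 arrays. HIST2H2AB read 8.50, 10.93 and 9.16 in mock and 8.94, 12.10 and 8.79 in NUDT16 arrays, and its HIST2 neighbour HIST2H2AC (chr1:149858863-149858922) had 0.56 (SE 0.94).

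The H2B genes, the partners of H2A, had the lowest class median of the difference as reported, with 16 of 16 above 0. Their range was from 0.22 to 0.63. With quantile normalization and in the authors' table H2B was not the lowest class. HIST2H2BE (A_33_P3229246, chr1:149858101-149858160) had the highest value, 0.63 (SE 0.94). It read 1.31, 3.45 and 2.03 in mock and 1.72, 5.33 and 1.63 in NUDT16 arrays. HIST1H2BN (A_33_P3229067, chr6:27806454-27806513) followed at 0.49 (SE 0.98), with 3.37, 6.27 and 4.43 in mock and 3.76, 7.58 and 4.21 in NUDT16 arrays. For both, NUDT16 replicate 2 was highest and mock replicate 2 second. HIST1H2BF had the lowest value, 0.22 (SE 0.95), with 3.76, 6.99 and 5.60 in mock and 4.22, 7.72 and 5.08 in NUDT16 arrays. HIST3H2BB (A_33_P3229335, chr1:228646192-228646251) had 0.23 (SE 0.76), with 1.86, 3.50 and 3.35 in mock and 1.92, 4.61 and 2.85 in NUDT16 arrays. Mock replicate 3 stood above replicate 1 in all 16 H2B genes, high and low. This was not particular to H2B: it held in 4 of 4 H1, 15 of 16 H2A, 12 of 13 H3 and 12 of 14 H4 genes. HIST2H2BF (chr1:149783649-149783703) had a difference between groups of 0.32 (SE 0.88).

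The H3 genes held both ends of the whole group. HIST2H3A (A_33_P3257678), one of the 3 tested genes whose probe holds the stem-loop, had the highest difference of all 63, 0.80 (SE 0.98). It read 8.21, 10.38 and 8.97 in mock and 8.62, 12.62 and 8.72 in NUDT16 arrays. HIST2H3D (A_23_P115375, chr1:120904981-120905040) had 0.69 (SE 0.96). Testis-type HIST3H3 (A_23_P137909, chr1:228612646-228612705) had 0.30 (SE 0.75), with 7.61, 9.07 and 7.77 in mock and 7.70, 10.03 and 7.61 in NUDT16 arrays. Its pair 2 difference was 0.96, that of HIST2H3A 2.24.

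HIST1H3A (A_23_P111037, chr6:26020881-26020940) was the exception of the family. It read 4.995, 6.86 and 5.25 on mock and 5.05, 6.17 and 5.20 on NUDT16 replicates 1, 2 and 3. Mock replicate 2 was its highest array, whereas NUDT16 replicate 2 was highest in the other 62 genes. The means were 5.70 ± 1.01 (SD, n = 3) and 5.47 ± 0.61 (SD, n = 3), a difference of -0.23 (SE 0.67, limma adjusted p 0.9996), with 0.05, -0.69 and -0.06 in the 3 pairs. In the other replicates HIST1H3A differed little between groups. It had no second probe, so this value rests on 60 bases of sequence.

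The HIST1H3A probe is printed with the 5 H3 probes nearest to it by identity, to show how alike the H3 probes are. In the lines for the other genes, capitals mark bases that differ from the HIST1H3A probe where the 2 overlap without gaps.
HIST1H3A: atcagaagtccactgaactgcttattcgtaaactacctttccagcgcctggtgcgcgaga
HIST1H3F: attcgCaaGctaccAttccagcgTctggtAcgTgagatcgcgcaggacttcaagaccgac
HIST1H3I: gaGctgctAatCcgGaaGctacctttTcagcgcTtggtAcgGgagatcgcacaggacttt
HIST1H3G: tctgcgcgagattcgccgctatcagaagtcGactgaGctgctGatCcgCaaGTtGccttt
HIST1H3H: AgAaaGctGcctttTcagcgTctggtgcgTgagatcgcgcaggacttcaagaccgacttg
HIST1H3D: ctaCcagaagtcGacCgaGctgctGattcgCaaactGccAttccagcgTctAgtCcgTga
HIST1H3F differs from HIST1H3A at 6 of 37 shared positions (83.8% identity), and HIST1H3D at 12 of 58 (79.3%), with HIST1H3I (80.4%), HIST1H3G (80%) and HIST1H3H (79.4%) between them. The pair 2 differences of the 5 were 1.80 for HIST1H3F, 0.99 for HIST1H3I, 1.73 for HIST1H3G, 1.68 for HIST1H3H and 2.11 for HIST1H3D, against -0.69 for HIST1H3A. Across the class, pair 2 values fell into separate ranges: HIST1H3E, HIST3H3, HIST1H3I and HIST1H3C lay between 0.94 and 1.002, and the other 8 genes besides HIST1H3A between 1.57 and 2.24. This split, and the genes in it, were noted after the values were seen.

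The H4 genes, which pair with H3 at the centre of the nucleosome, had the highest class median as reported. Of these genes 14 of 14 were above 0, with a range from 0.35 to 0.74. With quantile normalization and in the authors' table H4 was not the highest class. HIST1H4K (A_33_P3299865, chr6:27799089-27799148) and HIST1H4E (A_23_P415411, chr6:26205172-26205231) were highest, both at 0.74, with SE 0.999 and 0.97. HIST1H4E read 9.39, 11.23 and 9.74 in mock and 9.62, 13.54 and 9.41 in NUDT16 arrays. Its pair 2 difference, 2.31, was the largest of the 63. The lowest were HIST1H4F (A_23_P359540, chr6:26240818-26240877) at 0.35 (SE 0.997) and HIST1H4G (A_24_P277673, chr6:26247087-26247146) at 0.48 (SE 1.05). HIST1H4F read 5.85, 8.61 and 6.36 in mock and 6.21, 9.78 and 5.90 in NUDT16 arrays. HIST4H4 (A_23_P388871, chr12:14924006-14924065), the gene outside the large clusters, read -0.09, 3.23 and 1.40 in mock and 0.18, 4.81 and 1.30 in NUDT16 arrays, a difference of 0.58 (SE 1.08). HIST2H4B (chr1:149804396-149804455), whose probe also lists a second H4 gene (H4C14 and H4C15), had 0.60 (SE 0.99).

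Variation within a group was larger than the difference between the groups in every tested histone gene. The range over the 3 mock arrays ran from 1.46 to 3.33 on the log2 scale, and that over the 3 NUDT16 arrays from 1.13 to 4.63. In 63 of 63 genes each of these ranges exceeded the gene's difference between groups. The share of all probes tested with such ranges was not counted, so this is not given as particular to histone genes. Mock replicate 2 was the highest mock array in 63 of 63 genes, against 34.9% of all probes tested and 43% of probes detected on all 6 arrays. NUDT16 replicate 2 was the highest of the 6 arrays in 62 of 63 (background 22.4% and 27.5%), a count that was 59 with quantile normalization, 54 in the authors' table, 3 with normexp and 0 without scaling. Mock replicate 2 was the highest mock array in 62 genes with normexp, 60 with quantile normalization, 53 in the authors' table and 37 without scaling.

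**Figure D2:**
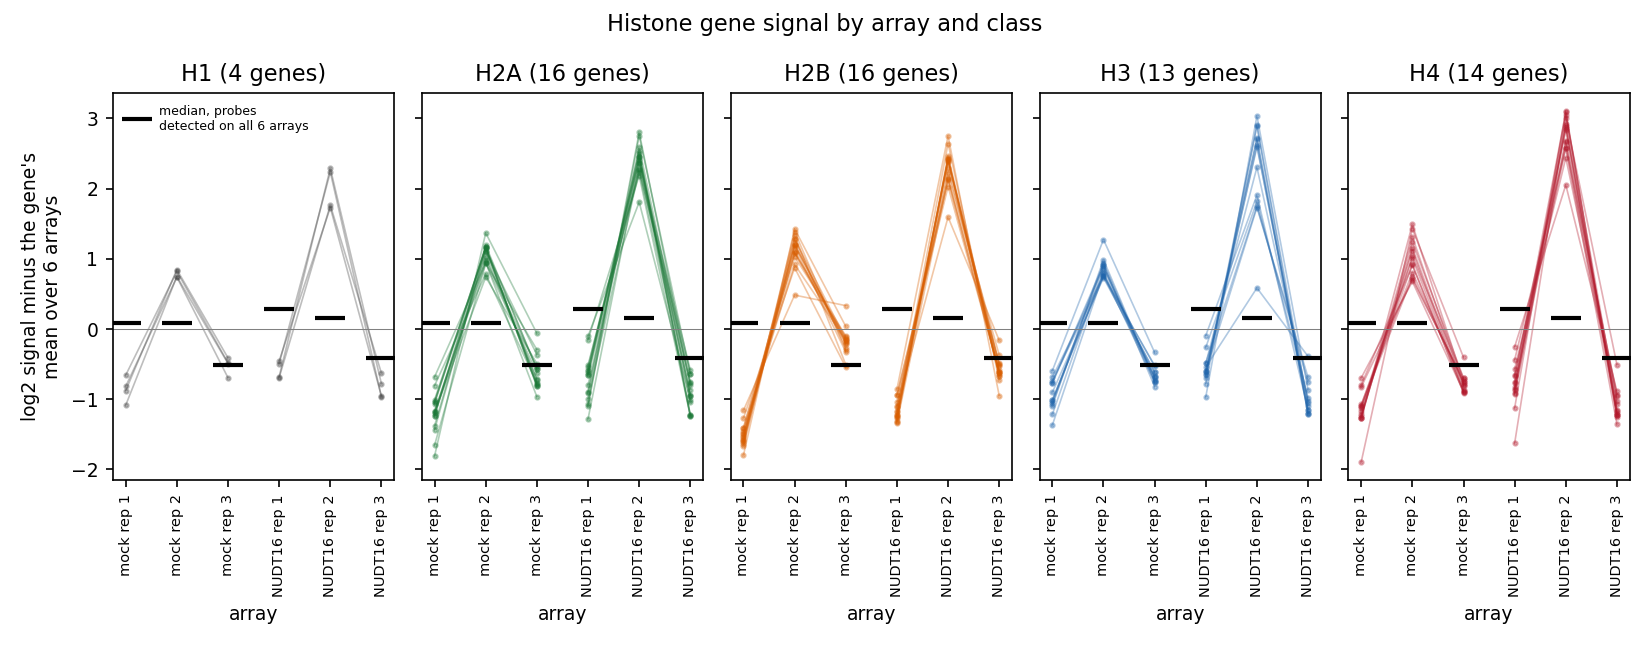
Log2 signal of each tested histone gene minus its own mean over the 6 arrays (vertical axis), by array (horizontal axis) and class (panels); each line is 1 gene within 1 group, and black bars are medians of the 6582 probes detected on all 6 arrays. Histone medians are 1.01 on mock replicate 2 and 2.44 on NUDT16 replicate 2, where the black bars are at 0.08 and 0.16.

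The difference of mock replicate 2 over mock replicate 1, called a step here although replicates have no order, had another median in each class. It was 2.68 for H2B, 2.21 for H2A, 2.18 for H4, 1.81 for H3 and 1.64 for H1, against 0.11 over all probes tested and 0.0028 over probes detected on all 6 arrays. The size depends on the scaling: for all 63 genes the median step was 2.19 as reported, 1.70 with normexp, 1.49 with quantile normalization, 0.94 in the authors' table and 0.58 without scaling. The corresponding medians of probes detected on all 6 arrays were -0.30, -0.16, -0.20 and -1.61. H2B had the highest class median under each of these settings.

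The H2B class stood apart more clearly in the step from replicate 1 to replicate 3. Between the mock arrays 15 of 16 H2B genes were higher on replicate 3 by more than 1 log2 unit, as were 3 of 16 H2A, 1 of 14 H4, 0 of 13 H3 and 0 of 4 H1 genes. The background was 21.8% of all probes tested and 11.1% of probes detected on all 6 arrays. The class medians were 1.35 for H2B, 0.53 for H2A, 0.32 for H1 and for H4, and 0.29 for H3, against -0.13 over all probes and -0.57 over those detected on all 6 arrays. The non-H2B genes past 1 were HIST1H2AA (1.75), HIST2H2AA4 (1.36), HIST1H2AE (1.01) and HIST4H4 (1.49), and the H2B gene under 1 was HIST2H2BE (0.73). HIST1H2AE is named here because of its value.

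The same step was seen between the NUDT16 arrays. Replicate 3 was above replicate 1 in 15 of 16 H2B genes, 6 of 16 H2A, 2 of 13 H3, 1 of 14 H4 and 1 of 4 H1 genes, against 46.1% of all probes tested and 28.1% of those detected on all 6 arrays. The class median was 0.57 for H2B and -0.23, -0.29, -0.30 and -0.51 for H2A, H1, H4 and H3. The exception among the H2B genes was again HIST2H2BE, at -0.09. HIST1H2BF, with the largest mock step of the class (1.84), had 0.86. Across the 63 genes the mock and NUDT16 steps correlated at r = 0.94 (Spearman's rho 0.91), as a description of genes that share the same 4 arrays on 2 slides. Under normexp, quantile normalization and the authors' table the H2B median remained the highest class median in both groups, at 1.30, 1.94 and 1.58 for mock and 0.70, 1.46 and 1.20 for NUDT16 arrays. The sign of the other classes in NUDT16 arrays, and so the counts, depended on the scaling. For H2A, H1, H4 and H3 the medians were 0.53, 0.52, 0.48 and 0.32 with quantile normalization. They were 0.50, 0.44, 0.37 and 0.24 in the authors' table, and below 0 with normexp. Without scaling they were 0.46, 0.40, 0.39 and 0.17.

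**Figure D3:**
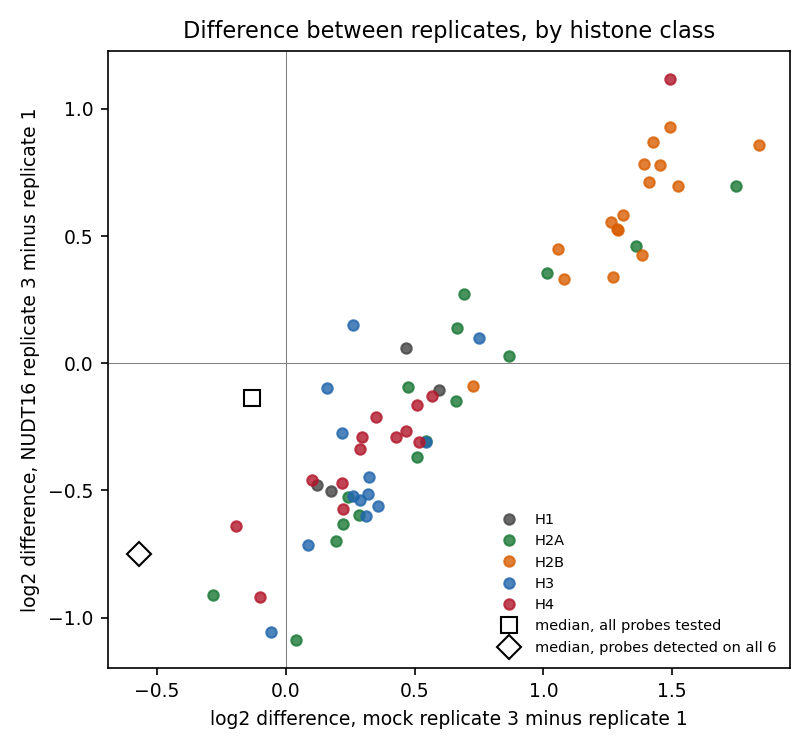
Each point is 1 tested histone gene, with the log2 difference of replicate 3 minus replicate 1 in mock arrays (horizontal axis) and in NUDT16 arrays (vertical axis), coloured by class; open symbols are medians of all probes tested and of probes detected on all 6 arrays. With the reported scaling, most H2B genes lie at the upper right, with class medians of 1.35 and 0.57, and H3 genes at 0.29 and -0.51.

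Signal level and GC content were set beside this step. Across the 63 genes the mock step correlated with the mean signal at r = -0.51 (rho -0.47) and with the GC content of the probe at r = -0.10 (rho 0.015), as a description of probes on the same arrays. Median GC was 53.3% for H1 and H2B, 54.2% for H2A and H4, and 55% for H3. The part of signal level in the class difference was not tested. Within the H2B class the dimmest tested gene, HIST2H2BE (mean signal 2.58), had the lowest step. The next dimmest, HIST3H2BB (mean signal 3.02), had a step of 1.49, above the class median of 1.35. Outside H2B, the genes with a step past 1 had mean signals of 1.08 (HIST1H2AA), 1.80 (HIST4H4), 3.61 (HIST2H2AA4) and 5.53 (HIST1H2AE). Other dim genes stayed under 1, such as HIST3H2A (mean signal 0.12, step 0.69) and HIST1H4G (mean signal 0.93, step 0.57). These genes are examples and do not settle the part of signal level.

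Histone genes are close copies, so their probes are not independent of each other. Of the 63 tested probes, 22 shared a run of at least 20 bases with the probe of another member of the class: 10 H2B, 5 H2A, 5 H4, 2 H3 and 0 H1 probes. The longest run, 32 bases in capitals below, joined the probes of HIST1H2BD (chr6:26158474-26158533) and HIST1H2BK (chr6:27114437-27114496).
HIST1H2BD: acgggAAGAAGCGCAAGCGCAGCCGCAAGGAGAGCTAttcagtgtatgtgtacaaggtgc
HIST1H2BK: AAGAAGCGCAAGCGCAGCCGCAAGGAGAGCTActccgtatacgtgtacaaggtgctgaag
Their mock steps from replicate 1 to replicate 3 were 1.31 and 1.26. The 6 H2B probes without such a run had steps from 0.73 (HIST2H2BE) to 1.84 (HIST1H2BF), 5 of them above 1. Only exact runs were counted, and some of these 6, such as that of HIST1H2BG, resemble other H2B probes with scattered differences. The split therefore cannot separate independent probes from similar ones. RefSeq transcripts of more than 1 gene were listed for 7 tested probes, those of HIST1H2BK, HIST1H4K, HIST2H2AA4, HIST2H2BF, HIST2H3A, HIST2H3D and HIST2H4B, and signal there cannot be assigned to 1 copy. For the other probes, signal from similar copies was not tested.

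Of the 14 histone probes that did not stand for a gene, 8 were detected on all 6 arrays, and all 8 had a difference above 0, from 0.11 to 0.54. Among the 11 genes with several probes, HIST1H2BK had a second probe (A_23_P145238) with 0.82, -0.61 and 0.37 in the 3 pairs. It was detected on 2 NUDT16 arrays and not on replicate 2, where its signal was -0.38, so the pair 2 value is set against background. A further HIST2H2BF probe (A_33_P3229239), detected on 1 NUDT16 array, had a difference of -0.42, and another (A_33_P3253501), detected on all 6, had 0.44. Second probes of HIST1H2AM, HIST1H4D and HIST1H4L had 0.54, 0.53 and 0.47. For HIST1H2AC (A_23_P372860) and HIST1H4A (A_23_P431179) the second probes, detected on all 6 arrays, gave 0.15 and 0.11, against 0.58 for each gene's brightest probe. The second probes with the stem-loop, of HIST1H3H and HIST1H4K, gave 0.38 and 0.40, with 1.45 and 1.28 in pair 2.

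Genes that make or process histone mRNA had differences on both sides of 0, many of them set in part against background. All 20 on the list had a probe, 19 were tested and 5 were detected on all 6 arrays. Of the 19, 0 were called with or without the block, 9 had a difference above 0 and 10 below, with a median of -0.20 and pair medians of -0.09, 0.19 and 0.04. SLBP, the stem-loop binding protein, read 2.92, 2.39 and 2.50 in mock and 2.91, 1.09 and 2.75 in NUDT16 arrays, a difference of -0.35 (SE 0.65). Only NUDT16 replicate 2, where SLBP was not detected, was low. The highest differences were 0.93 for MIF4GD (SE 0.79), a partner of SLBP in translation, and 0.88 for HINFP (SE 0.73), an activator of H4 genes. The lowest were -1.05 for CPSF3 (SE 0.69), the endonuclease of the cleavage complex, and -0.64 for CSTF2 (SE 0.60), a cleavage factor. Each of these 5 was detected on 3 mock and 2 NUDT16 arrays, and the smallest limma adjusted p on the list was 0.9996, or 0.480 with the block. MIF4GD, HINFP and CPSF3 read 0.31, 0.05 and 0.90 on NUDT16 replicate 2, under the lowest detected signal of that array, 1.17. Their pair 2 values of 1.35, 1.61 and -2.34 are therefore set against background. The same limit holds for the sign of any listed factor that was not detected on all 6 arrays.

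**Figure D4:**
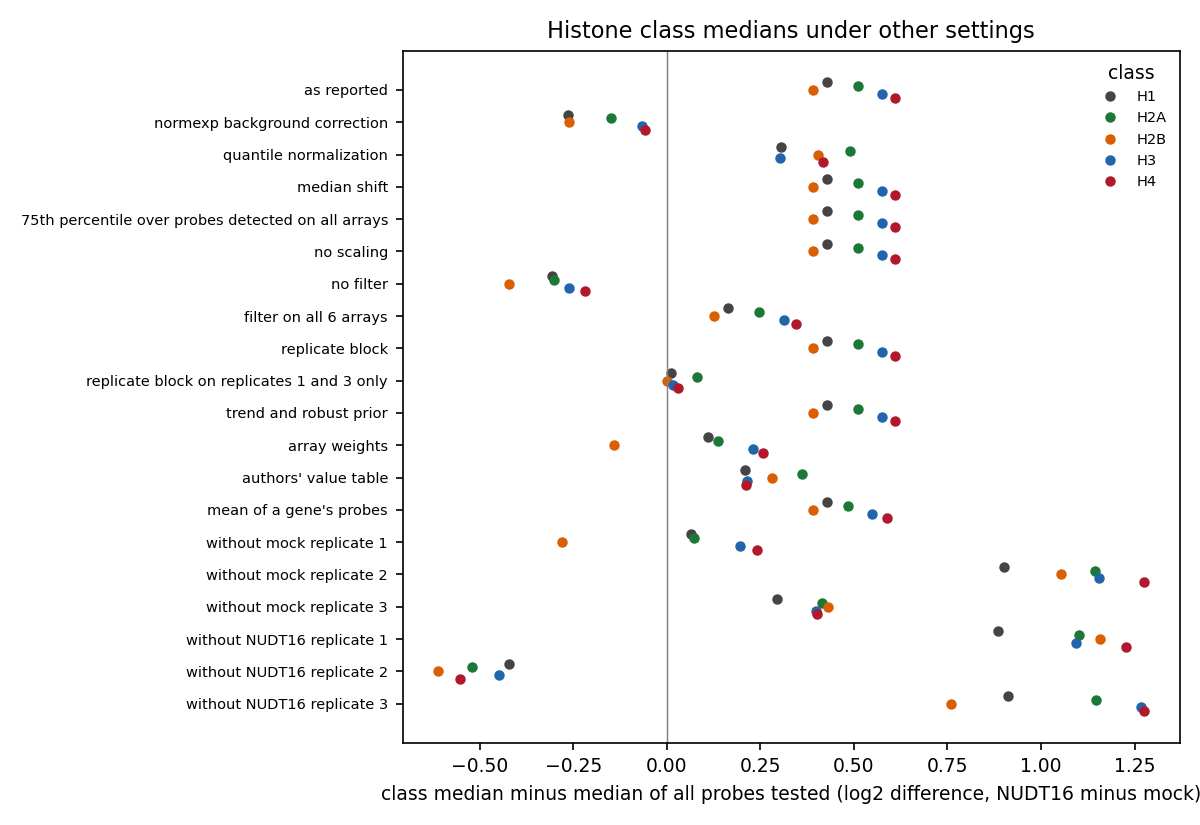
Median log2 difference (NUDT16 minus mock) of each histone class minus the median of all probes tested (horizontal axis), under each processing setting (vertical axis), coloured by class. The values run from 0.39 to 0.61 as reported, no higher than 0.08 in pairs 1 and 3 alone, and from -0.61 to -0.42 without NUDT16 replicate 2.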

How the data were processed

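Arrays of 3 mock and 3 NUDT16 samples were read. Per the file headers, the deposited intensity is the background-subtracted, detrended spot signal of Agilent Feature Extraction 10.7.3.1 (design 039494, hg19 probe positions), with surrogates for dim spots and no scaling between arrays. The submitters' processing notes also name limma. The values in the authors' deposited table are log2, their making not given in the sources used here, and served as an alternative.

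Control and outlier spots were left out, log2 intensity was shifted by each array's 75th percentile, and spots of a probe were averaged; 13 of 50599 probes without a usable spot were dropped. Probes detected (over 50% of spots) on all 3 arrays of a group were compared with lmFit and eBayes of limma 3.58.1 under R 4.3.3 (two-sided, Benjamini-Hochberg over 17765 probes at 0.05, no block). The procedure was tried on simulated data with independent arrays. Those data do not hold the pairing of the real arrays, so the trial does not check the fit under it. No column of values was left unmapped. Deviations of same-numbered arrays from their group means correlated at 0.84, 0.39 and 0.77, so the numbers, which follow slide and scan, pair the arrays; which of these pairs them cannot be told apart. Current names came from RefSeq through accessions (69 of 70 members); exon positions are not given, since an hg19 annotation was not used here.

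Members and lists were chosen with earlier results of these data known. Named genes were all H1 genes, all outside HIST1, the testis-type genes, and the 2 highest and 2 lowest differences of the other classes. Of the processing factors they were SLBP with the 2 highest and 2 lowest. Other genes were named for their detection or their probes (stem-loop, similar bases or a second probe), with these values known. The rest are marked as chosen after their values were seen. The result of 1 marker on the list of other cells is not reported here.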

Additional observations from a re-analysis of the deposited data

How the results depend on the processing

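Histone genes called stayed at 0 in each of the 19 other settings. The count over all probes was 0 instead of 1 with normexp, without scaling, without a filter, with a filter on all 6 arrays and in the authors' table (11, 1, 225, 2 and 10 probes at an unadjusted limma p under 0.05), and 521 with the replicate block on replicates 1 and 3 only. The cause was not tested. With the replicate block on all arrays the count over all probes was 1 and the histone median minus that of all probes stayed at 0.51; on replicates 1 and 3 only it was 0.02. It was -0.16 with normexp, -0.30 without a filter and 0.13 with array weights. Leaving out 1 array gave -0.53 to 1.13 for all histone genes, -0.42 to 0.91 for H1, -0.52 to 1.15 for H2A, -0.61 to 1.16 for H2B, -0.45 to 1.27 for H3 and -0.55 to 1.28 for H4, each lowest without NUDT16 replicate 2. Without mock replicate 1 the H2B median was -0.28. Of 456 alternative values for 24 named histone genes, 400 moved by less than 1 SD of their pair differences. This count does not measure stability. The filters, the block on all arrays and the robust prior cannot change a gene's difference. The SD was as large as 1.39 (HIST1H4E), so a change of sign could count as unmoved. HIST1H4E went from 0.74 to -0.34 without scaling and was counted so. The class steps between replicates under other normalizations were an addition made after the data were seen. Signal over background limits the values of dim members such as HIST3H2A and HIST4H4, most of all on NUDT16 replicate 2.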
